A study of Gallus gallus with 6 samples.

Results

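Chromosome 2 of the chicken carried 4627 TCF21 regions, of 37420 regions in the whole series, and they are described here on the sides of a fixed cut at position 52500000. A region was a stretch where peaks of different peak lists overlapped by at least 1 bp, and it was kept where all 3 lists had a peak. The side of a region was set by its midpoint: 2105 regions lay left of the cut (positions up to the cut) and 2522 lay right of it. The cut was placed where the background level of the same lists was already known to change, so the background level is a description here and carries no test. The sides were proposed as chromosome arms, but no centromere position of the genome build was used, and they are called left and right.

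The study mapped TCF21 by chromatin immunoprecipitation and sequencing in preadipocytes, the precursors of fat cells, taken from chicken adipose tissue. All 6 samples, 3 immunoprecipitations with an antibody against the HA tag and 3 samples of input DNA, came from cells with a lentiviral construct (LV-TCF21) that stably overexpresses TCF21, kept for 24 h with 300 µM oleic acid. The binding is therefore that of an overexpressed factor, and separate cultures are not stated for the samples of a group, so an SD or p-value over lists may reflect technical spread alone. The lists hold no expression values, so the cell type could not be checked against markers.

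TCF21 belongs to the basic helix-loop-helix factors, which bind DNA as dimers at short E-box sequences, usually together with a widely expressed E protein. In the mouse it is known from mesenchymal cells and from white fat precursors. Sites bound by such a factor are often grouped near the genes and enhancers that are open in a cell type. The genome build of the positions was not given in the sources used here, no genome of it was used, and genes and sequences were therefore not placed on the regions.

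Each immunoprecipitation gave 1 peak list, called lists 1, 2 and 3. They held 7470, 6949 and 7230 peaks on chromosome 2. Pileup is the number of fragments stacked at a peak summit, and fold enrichment is pileup plus 1 over the local control level plus 1, both from the authors' peak caller. The control level, called input here, was recovered as (pileup + 1) / fold enrichment − 1. With several peaks of a list in 1 region, the one of highest fold enrichment gave its values. Depth per sample is unknown, and the lowest pileups on the chromosome were 4, 4 and 3 fragments, so weak peaks have coarse values. Where an effect is set against the lists, the test is a two-sided exact permutation test that flips the sign of each list's difference, and 3 lists cannot give a p below 0.25.

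TCF21 regions were packed more densely on the left side. It held 40.1 regions per Mb, against 26.0 per Mb on the right side, a ratio of 1.54. The left side took 45.5% of the regions (exact binomial 95% interval 44.1% to 46.9%, counting error only) on 35.1% of the span up to the last peak. Regions covered 2.47% of the left side and 1.60% of the right side. The 30 other autosomes together held 38.3 regions per Mb, close to the left side, and chromosomes 1 and 3, the macrochromosomes next to it in size, held 30.8 and 34.0.

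The peaks of each single list showed the same direction. List 1 had 62.1 peaks per Mb on the left side and 43.4 on the right side. List 2 had 58.2 on the left side and 40.1 on the right side, and list 3 had 58.3 on the left side and 43.0 on the right side. The ratio was 1.41 ± 0.0486 (SD, n = 3; exact permutation p = 0.25, the smallest possible), and every left value was above every right value. Peaks are called over the local control, on whose step the cut was placed, so this p gives no separate support. The excess lay mostly in the peaks that the lists shared. Stretches with a peak of 1 list alone numbered 26.7 per Mb left and 25.1 per Mb right. Those with peaks of 2 lists numbered 14 per Mb left and 10.7 right, and those of all 3 lists 40.1 left and 26.0 right. A peak of a list lay in a region shared by all 3 lists in 69.4 ± 2.75% of cases on the left side and in 63.3 ± 2.59% on the right side (SD, n = 3). Pileup, which was higher left, can affect in how many lists a stretch is called, and its part here was not tested.

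The pileup was higher on the left side at every level, from weak to strong regions. The median pileup was 26 fragments left and 20 right in list 1, 24 left and 18 right in list 2, and 20 left and 15 right in list 3. Every list was thus higher on the left, by a ratio of 1.32 ± 0.0192 (SD, n = 3). Pileup is given without a test, since it enters the formula of the input, on whose step the cut was placed. The ratio of the sides hardly moved along the distribution: it was 1.35 ± 0.0667 at the 10th percentile, 1.36 ± 0.0219 at the 75th, 1.4 ± 0.0399 at the 90th and 1.37 ± 0.0270 at the 99th. In the strongest 10% of the regions of each side the mean pileup was 122, 119 and 103 fragments left in lists 1, 2 and 3, against 89.6, 85.8 and 74.6 right. That ratio was 1.38 ± 0.00894 (SD, n = 3). The strongest 1% gave 1.30 ± 0.0326. Regions enter only where peaks were called over the local control, which was higher left. The part of this calling in the pileup ratios was not tested.

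The input level differed between the sides more than the pileup did. Its mean over regions was 2.98, 2.81 and 2.17 fragments left in lists 1, 2 and 3, against 1.82, 1.74 and 1.34 right, a ratio of 1.62 ± 0.0155 (SD, n = 3). The medians gave 1.56 ± 0.0781, and they are coarse because low input levels take few distinct values. On the left side 0.111 ± 0.0274% of the regions had the input at the lowest value of their list, its floor, and on the right side 12.1 ± 2.80% did. Against the median of the 30 other autosomes, the input was 1.30 ± 0.0506 times as high on the left side and 0.831 ± 0.0620 times on the right side. The pileup stood at 1.13 ± 0.0160 times theirs on the left side and at 0.853 ± 0.0184 times on the right side. Chromosomes 1 and 3 each had a median input of 1.71 ± 0.194 fragments, against 2.36 ± 0.365 left and 1.52 ± 0.299 right. Their median pileup was 19.7 ± 2.52 fragments each, against 23.3 ± 3.06 left and 17.7 ± 2.52 right (SD, n = 3). Input and pileup thus moved together across the cut, and the part of the input level in the pileup and density of the sides was not tested.

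Fold enrichment, which divides by the input, differed less between the sides than pileup did and was mostly lower on the left. It is given without a test, as is pileup over input, because the cut was chosen with the step of the input known. The median was 7.31 left and 7.70 right in list 1, 6.84 left and 7.30 right in list 2, and 6.92 left and 6.91 right in list 3. Lists 1 and 2 were thus lower on the left and list 3 was level, with a ratio of 0.963 ± 0.0346 (SD, n = 3). The ratio was 0.949 ± 0.0268 at the 10th percentile and 0.946 ± 0.0159 at the 25th, below 1 in every list. At the 75th to 95th percentiles it lay between 0.981 and 0.992, with lists on both sides of 1. It was 0.902 ± 0.010 at the 99th percentile and 0.888 ± 0.0262 for the mean of the strongest 1%, again below 1 in every list. The closeness of the medians depended on the pseudocount of 1 in the deposited value. Without it, pileup over input had a median of 9.79 ± 0.369 on the left side and 12 ± 0.389 on the right side, a ratio of 0.816 ± 0.00930 (SD, n = 3), below 1 in all 3 lists. The direction of the pileup difference therefore turned once the pileup was divided by its own input. Subtracting the input in place of dividing by it kept the direction, with medians of 20.7 ± 2.77 fragments left and 15.9 ± 2.05 right, a ratio of 1.30 ± 0.0160. Within a side, pileup and input had a Spearman's rho across regions of 0.228 ± 0.0343 left and 0.214 ± 0.00205 right. The input of single regions was itself repeated poorly between lists, with a rho of 0.257 left and 0.182 right. The rho of pileup and input therefore cannot tell how closely the 2 are linked.

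**Figure D1:**
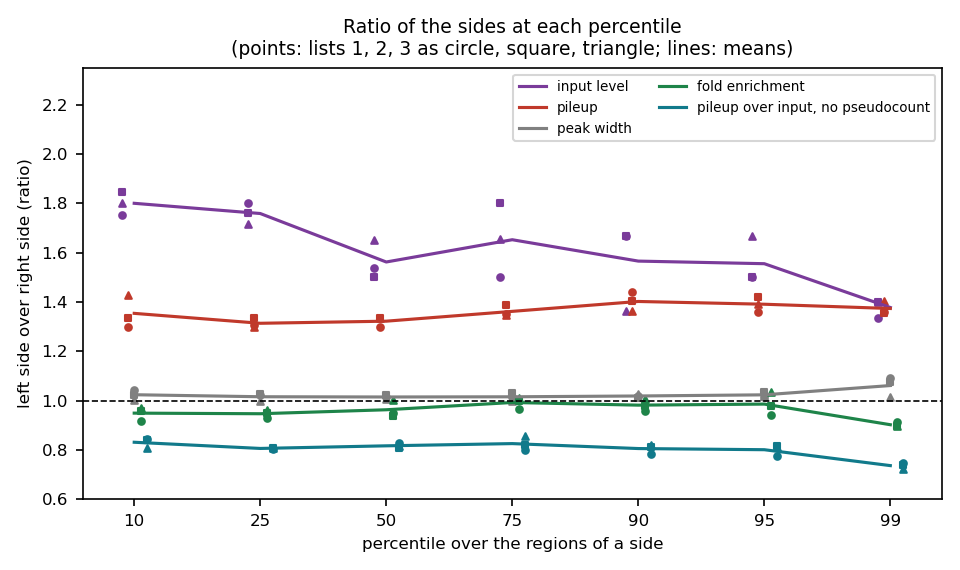
The left side over the right side (ratio, vertical axis) at the 10th to 99th percentile over the regions of each side (horizontal axis), for input level, pileup, peak width, fold enrichment and pileup over input without a pseudocount. Points are the 3 lists and lines their means. Pileup stays between 1.30 and 1.44, peak width between 0.998 and 1.09 and fold enrichment between 0.895 and 1.04, and pileup over input lies between 0.721 and 0.854.

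Along the chromosome the input changed most at the cut and less within a side, while density varied on both sides. In bins of 5 Mb counted from the cut, the median over regions of the mean input over lists was 2.48 to 2.73 fragments in the 10 full bins left and 1.33 to 1.70 in the 19 full bins right. The partial bin at the right end, from 147.5 Mb, held 22 regions and had a median input of 1.19. The median pileup was 21.5 to 26.7 fragments in full left bins and 14 to 21.3 in full right bins. In these means over lists, 0 of the 19 right bins reached the lowest left bin for input or for pileup, but for pileup the sides came within 1 fragment of each other. In single lists the median pileup overlapped: 1 right bin in list 1, 2 in list 2 and 0 in list 3 were at or above the lowest left bin. The lowest left bin had 22.5 fragments in list 1 and 21 in list 2, while the right bin at 137.5 to 142.5 Mb had 24 in list 1 and 22 in list 2, and the right bin at 77.5 to 82.5 Mb had 21 in list 2. The mean input overlapped in 0 of the 19 right bins in each of the 3 lists. Median fold enrichment ran from 6.38 to 7.76 in left bins and from 6.64 to 8.35 in right bins, so that all 19 right bins were at or above the lowest left one.

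Density did not separate the sides in this way. Left bins held 27.2 to 52 regions per Mb, with a median of 39.8, and right bins 13.2 to 52.2, with a median of 23.8. Of the 19 right bins, 8 were at or above the lowest left bin. The densest bin of the chromosome was on the right side, at 137.5 to 142.5 Mb, with 52.2 regions per Mb. It also had the highest median pileup (21.3 fragments) and fold enrichment (8.35) of the right bins, still with a median input of 1.64 fragments. The sparsest full bin, at 92.5 to 97.5 Mb, held 13.2 regions per Mb, with a median pileup of 14 and an input of 1.33. Across the bins of a side, density and median pileup had a Spearman's rho of 0.177 left (10 bins) and 0.444 right (19 bins), and density and input one of 0.134 left and 0.644 right. These values describe bins that share libraries and neighbouring sequence.

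**Figure D2:**
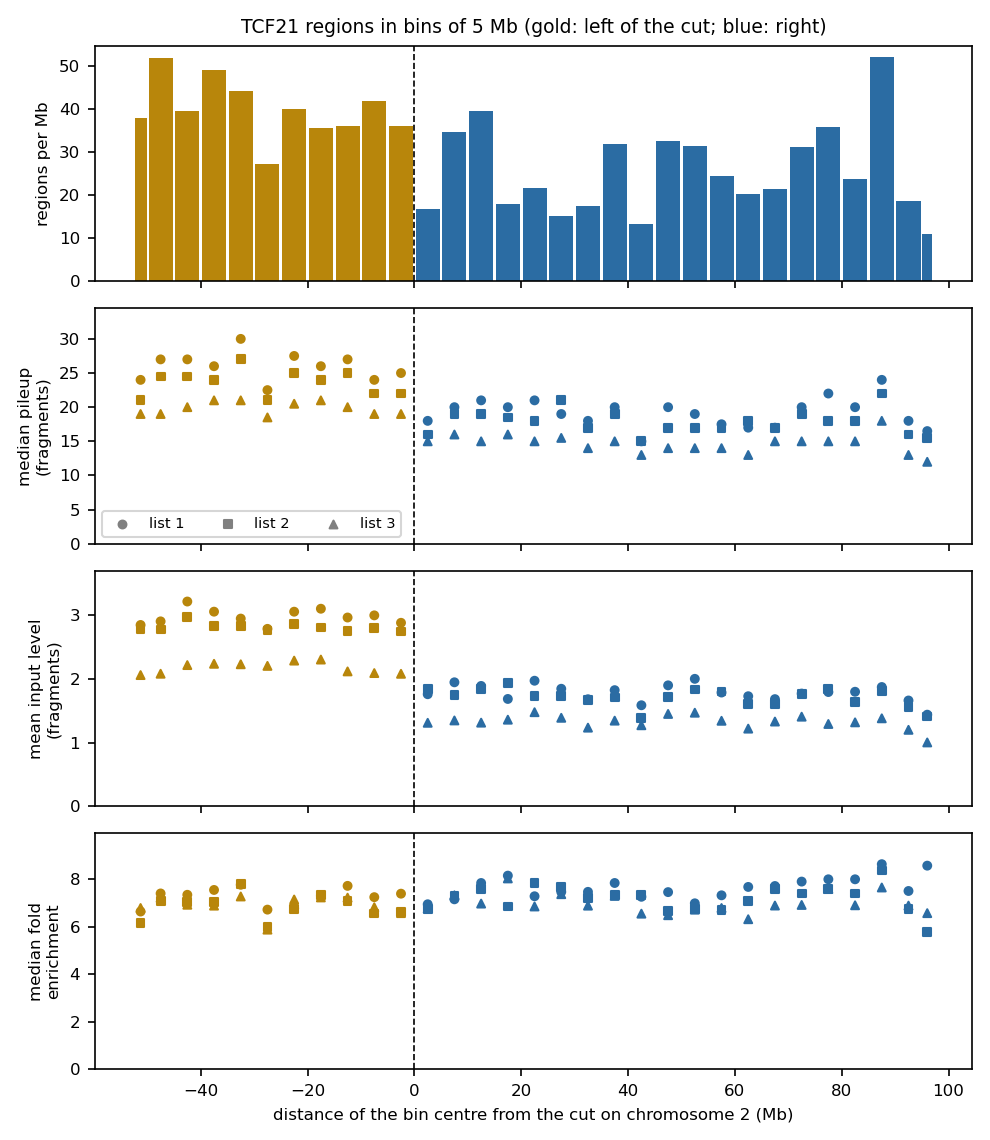
Regions per Mb, median pileup, mean input level and median fold enrichment (vertical axes, top to bottom) in bins of 5 Mb by distance of the bin centre from the cut in Mb (horizontal axis), with gold for the left side, blue for the right side and the 3 lists as separate symbols. Input levels of left and right bins are apart in every list, those of pileup overlap in lists 1 and 2, fold enrichment overlaps widely, and density ranges from 13.2 to 52.2 regions per Mb in the full bins right of the cut.

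The change of the input fell within a stretch with few regions. The last region left of the cut, at 52290147 to 52290736, had 36, 26 and 21 fragments in lists 1, 2 and 3 and inputs of 2.58, 2.24 and 3.77. The first region right of it, at 52947961 to 52948861, had 31, 37 and 25 fragments and inputs of 1.72, 4.27 and 0.744, the last of these at the floor. The inputs of these 2 regions overlapped across the lists. In steps of 1 Mb from the cut, the mean input over peaks of list 1 was 2.83 and 2.44 fragments in the last 2 steps left of it, and 1.21 and 1.41 in the first 2 steps right of it. List 2 had 2.61 and 2.24 left and 1.63 and 1.45 right, and list 3 had 2.0 and 1.77 left and 1.09 and 1.02 right. In every list both steps left of the cut were thus above both steps right of it. The steps just right of the cut were also sparse, with 4 and 10 regions, while the last step left of it held 27.

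The strongest regions by pileup were mostly on the left side, which the strongest by fold enrichment were not. Of all regions on the chromosome, 45.5% lay left of the cut and 54.5% right of it. All 10 regions of highest mean pileup on the chromosome were left of the cut, as were 39 of the highest 50 and 72 of the highest 100. By mean fold enrichment, 3 of the highest 10, 16 of the highest 50 and 40 of the highest 100 were left of the cut. The count in the highest 100 is near the left share of all regions, and the strongest 10% by fold enrichment held 45.0% left regions. The same regions thus rank differently by the 2 measures.

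On the left side the region at 1430247 to 1431219 and that at 20008986 to 20010078 shared the highest mean pileup. The first had 240, 254 and 232 fragments in lists 1, 2 and 3 (242 ± 11.1, SD, n = 3), with fold enrichments of 55.3, 36.6 and 42.2. The second had 249, 242 and 235 fragments (242 ± 7.0), with fold enrichments of 69.1, 47.3 and 74.3. Their pileups agree within the spread of the lists, and the inputs under them averaged 4.62 ± 1.31 and 2.98 ± 1.03 fragments. The region at 12470751 to 12472212 followed with 217, 218 and 208 fragments, and that at 23590008 to 23591586 with 223, 218 and 188. That region at 23590008 had the steadiest fold enrichment of these regions, at 60.3 ± 2.89. The other 6 of the left side, from 3476361 to 3477213 (198 ± 6.66) down to 21043710 to 21045426 (185 ± 15.1), differed from their neighbours in rank by less than their SDs, so neighbours in rank cannot be ordered. The first of these 6, with 200, 204 and 191 fragments, was above the last, with 199, 187 and 169, in every list.

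Right of the cut the highest mean pileups were lower than that of rank 10 on the left side. The region at 102326982 to 102328388 had 193, 176 and 152 fragments (174 ± 20.6), with fold enrichments of 76.1, 49.7 and 75.4. The region at 56656068 to 56657602 had 173, 186 and 160 fragments (173 ± 13.0) and a steady fold enrichment of 52.9 ± 3.69. Their mean pileups differed by less than their SDs, so they cannot be ordered. The region at 65793429 to 65794202 had 178, 174 and 157 fragments, and its fold enrichments of 91.9, 49.2 and 72.6 followed its inputs of 0.948, 2.56 and 1.18, the first at the floor of list 1. The region at 121609266 to 121610335, with 177, 153 and 146 fragments, had the highest mean fold enrichment of the chromosome, 71.6 ± 13.0. Rank 10 of the right side, at 102550753 to 102553370, had 150.3 ± 12.3 fragments.

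The highest fold enrichments of the left side, 66.2 ± 20.3 at 3476361 to 3477213 and 64.5 ± 10.7 at 42878366 to 42879418, lay within the spread of the highest ones on the right side. The region at 63482565 to 63483793 on the right side combined 146 ± 19.3 fragments with the lowest mean input of these strong regions, 1.1 ± 0.0971, for a fold enrichment of 70.0 ± 7.09. No region of either side had an input of at least 3 times the median of its side in every list.

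**Figure D3:**
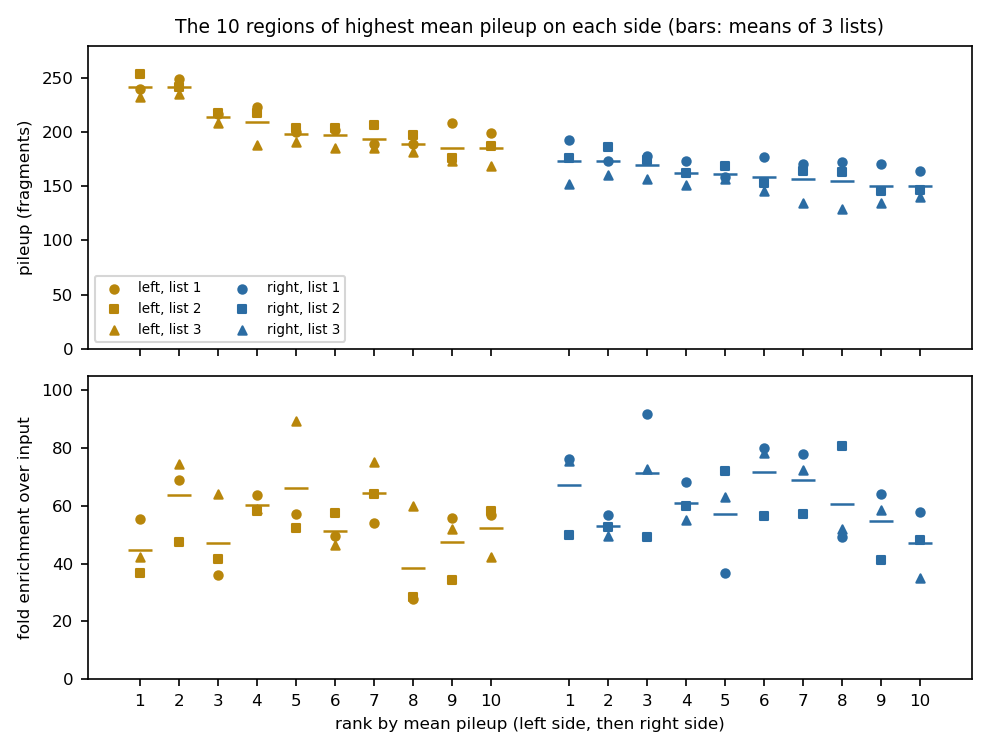
Pileup in fragments (top) and fold enrichment over input (bottom) of the 10 regions of highest mean pileup on the left side (gold) and on the right side (blue), by rank (horizontal axis), with the 3 lists as separate symbols and bars for their means. Mean pileups run from 242 to 185 left and from 174 to 150 right, while the fold enrichments of the sides overlap.

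Ranking all 4627 regions together showed where the left excess sat. Ranked by mean pileup, the weakest 10% held 12.7% left regions (exact binomial 95% interval 9.84% to 16.1%) and the strongest 10% held 62.6% (58.0% to 67.0%), with 47.6% to 52.7% in the classes of rank 4 to 9, of 10 equal classes. The part of peak calling in the share of the weakest class was not tested. Ranked by mean fold enrichment, the left share was 54.4% in the weakest class, 42.8% to 48.2% in the classes of rank 2 to 9 and 45.0% in the strongest class. All of these lay above the 35.1% of the span that the left side takes. Ranked by pileup over input, the left share was 73.0% in the weakest class and did not fall steadily from there. It was 36.3% (31.9% to 40.8%) in the class of rank 5 and 45.6% (41.0% to 50.2%) in that of rank 9. In the strongest class it was 34.8% (30.5% to 39.4%). The intervals of the strongest class and of ranks 5, 6 and 8 held the share of the span. All these intervals cover counting error only and take regions as independent, although regions were clustered and came from the same lists. They are descriptions and no test, since the cut was placed on a step of the input.

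Thresholds gave the same picture in densities. Where all 3 lists reached a fold enrichment of 10, the left side held 489 regions (9.31 per Mb) and the right side 562 (5.79 per Mb), a density ratio of 1.61. At a fold enrichment of 30 there were 39 left and 60 right, a ratio of 1.2. Where every list reached a pileup of 10 fragments the ratio was 1.92, at 50 fragments it was 2.95, and at 100 it was 3.74, from 83 regions left and 41 right. The density ratio thus grew with the threshold on pileup but not with that on fold enrichment.

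**Figure D4:**
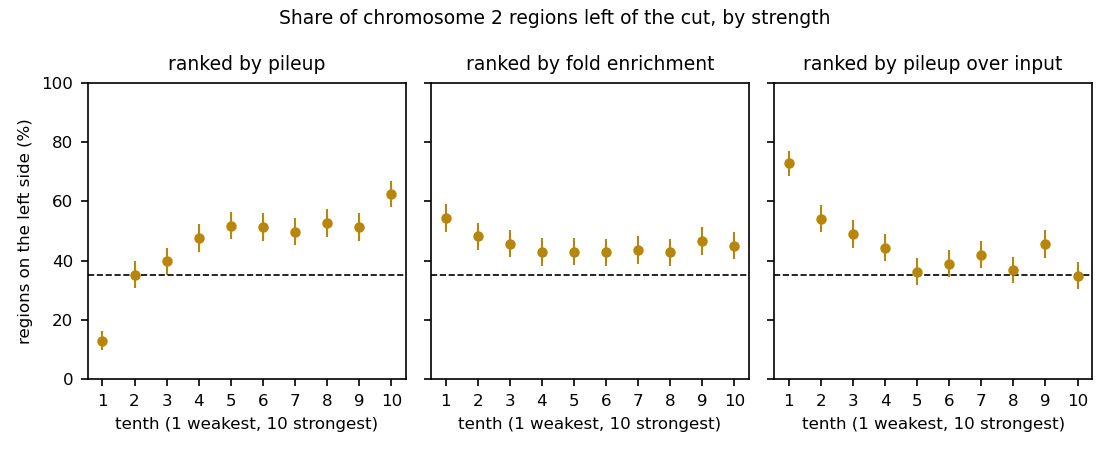
Share of regions on the left side in percent (vertical axis) in 10 equal classes of all chromosome 2 regions ranked by mean pileup, mean fold enrichment or mean pileup over input (horizontal axis, weakest to strongest), with exact binomial 95% intervals (counting error only). The dashed line is the 35.1% of the span on the left side. By pileup the share grows to 62.6%, and by fold enrichment it stays at 42.8% to 54.4%. By pileup over input it is 73.0% in the weakest class, 45.6% in the class of rank 9 and 34.8% in the strongest.

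Peak width hardly differed between the sides as a whole. The median width of the peaks was 436 bp left and 430 bp right in list 1, 420 bp left and 410 bp right in list 2, and 398 bp left and 396 bp right in list 3. The difference was 6.0 ± 4.0 bp (SD, n = 3; exact permutation p = 0.25), and it turned to −10.3 ± 7.09 bp when regions with an input at the floor were left out. Joined regions had a median width of 531 bp on the left side and 537 bp on the right side, and 9.74% and 9.28% of them were at least 1000 bp wide. Each side had a few regions far wider than that.

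The widest was at 9634783 to 9638650 on the left side, with 3868 bp, 6 peaks and pileups of 208, 176 and 173 fragments. The region at 598712 to 602170, also left, spanned 3459 bp with a lower pileup of 76.3 ± 16.5. On the right side the widest was at 140154697 to 140157446, with 2750 bp and 88.3 ± 13.7 fragments. The region at 62835576 to 62837903 was 2328 bp wide with a pileup of 36.0 ± 6.08 fragments, a summit lower than in the other wide regions named here.

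At like pileup, peaks were narrower on the left side. Among peaks of 10 to 14 fragments the median width was 296 ± 2.29 bp left and 329 ± 8.19 bp right, a difference of −33.5 ± 7.26 bp (SD, n = 3). Among peaks of 30 to 49 fragments it was 474 ± 4.51 bp left and 531 ± 4.04 bp right, a difference of −56.3 ± 3.51 bp. Among peaks of 100 fragments or more it was 797 ± 13.4 bp left and 860 ± 23.8 bp right, a difference of −63.5 ± 28.2 bp. In all 6 classes of pileup and in every list the left peaks were narrower. Widths at like pileup are given without a test, since pileup enters the formula of the input, on whose step the cut was placed. Fold enrichment in these classes was 0.716 to 0.765 times as high left as right. At like pileup this follows from the formula and restates the input difference. The input was higher left, and its part in the widths at like pileup was not tested. At like fold enrichment the widths, left minus right, differed by 4.83 ± 14.4 bp for fold enrichments of 4 to 6 and by 14.8 ± 18.5 bp for those of 6 to 8. The difference was 14 ± 7.26 bp for 8 to 12 and −3.67 ± 19.7 bp for 12 to 20. Left peaks were wider in every list at 6 to 8 and at 8 to 12, while the lists differed in direction at 4 to 6 and at 12 to 20. At 20 or more the left peaks were also wider in every list, with 707 ± 20.3 bp left against 664 ± 23.8 bp right, a difference of 43.3 ± 3.62 bp.

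**Figure D5:**
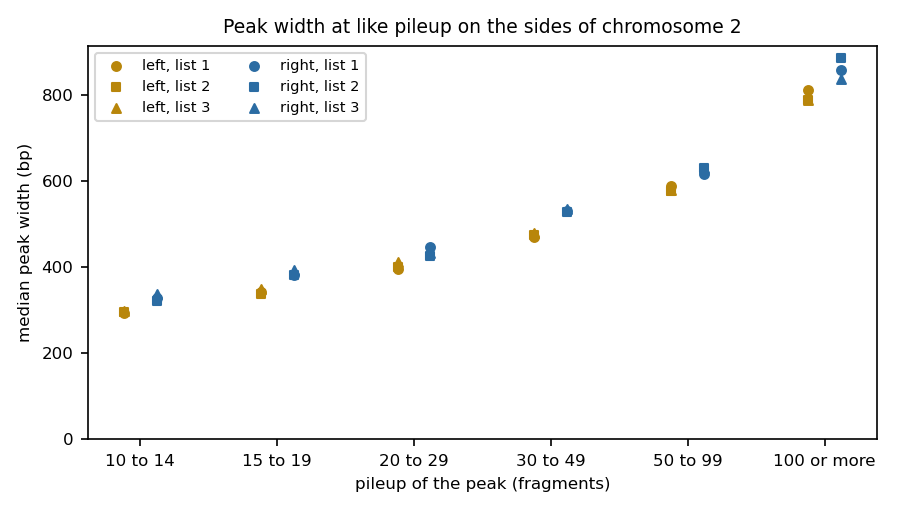
Median peak width in bp (vertical axis) by class of pileup in fragments (horizontal axis), left side in gold and right side in blue, with the 3 lists as separate symbols. In every class the left peaks are narrower than the right ones, for example 474 bp against 531 bp at 30 to 49 fragments.

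Regions stood closer together on the left side, and the right side had more long empty stretches. The median distance between the midpoints of neighbouring regions was 9.73 kb on the left side and 13.4 kb on the right side, and the mean was 24.8 kb left and 38.3 kb right. Over the peaks of single lists the median distance was 6841, 7119 and 7112 bp left in lists 1, 2 and 3, against 7963, 8319 and 8814 bp right. This was a ratio of 0.841 ± 0.0292 (SD, n = 3; exact permutation p = 0.25). Spacing follows in large part from peak density, so this is not a separate result. Short distances differed less than long ones: the 10th percentile of the distance between regions was 1.4 kb left and 1.69 kb right, a ratio of 0.831, and the 90th was 64.9 kb left and 95 kb right, a ratio of 0.683.

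Distances of over 100 kb made up 32.1% of the left side and 53% of the right side. Distances of over 500 kb numbered 2 on the left side and 13 on the right side. The longest stretch without a region was at 82016076 to 83282213 on the right side, 1266 kb, with 2, 7 and 10 unshared peaks in lists 1, 2 and 3. The stretch at 73981082 to 75127778, also right, was 1147 kb long. On the left side the longest was at 45042477 to 45884593, with 842 kb. Gaps of the assembly and sequence that cannot be mapped were not known here and count as empty.

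Clusters of regions occurred on both sides. Of 525 windows of 100 kb on the left side, 77 (14.7%) held no region and 39 (7.43%) held at least 10. Of 971 windows on the right side, 270 (27.8%) held none and 34 (3.50%) held at least 10. The densest window left, at 19900001 to 20000000, held 24 regions and 27, 33 and 27 peaks of lists 1, 2 and 3. The densest window right, at 139900001 to 140000000, held 22 regions and 32, 29 and 27 peaks. These clusters differed in pileup but little in fold enrichment. The median of the mean pileups was 39.7 fragments in that left window and 26.5 in that right one, with median fold enrichments of 9.11 left and 9.41 right. The window at 65000001 to 65100000 on the right side held 16 regions with a median pileup of 39.8 and a median fold enrichment of 15.2, the highest fold enrichment of the 6 windows named by count.

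Regions with a near neighbour were somewhat stronger on both sides. A neighbour within 10 kb was found for 72.5% of left regions and 64.5% of right regions. On the left side the median pileup was 24.3 ± 3.06 fragments with such a neighbour and 21.7 ± 2.52 without, and on the right side it was 18 ± 2.65 with and 16.3 ± 2.08 without (SD, n = 3). The left regions without a near neighbour thus had a higher median pileup than the right regions with one. Their median fold enrichment was lower, at 6.87 ± 0.196 against 7.42 ± 0.270 in those right regions. Peaks were also wider beside a neighbour, with 427 ± 19.3 bp against 401 ± 20 bp left and 424 ± 22.2 bp against 393 ± 10.2 bp right. The pileups and widths were higher with a neighbour in each of the 3 lists on both sides. In list 1 the median pileups were 27 against 24 fragments left and 20 against 18 right. In list 3 they were 21 against 19 left and 15 against 14 right. The SDs above are those of the levels of the lists, not of these differences, which were small and not tested. The median input was also higher with a neighbour in every list on both sides, for example 2.63 against 2.52 fragments left and 1.68 against 1.55 right in list 1. Its part in these differences was not tested.

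The lists matched each other somewhat better on the left side, where every pair of lists had a higher rank correlation and closer summits than any pair on the right side. Across the regions of a side, Spearman's rho between the pileups of a pair of lists was 0.895 ± 0.00602 left and 0.880 ± 0.00298 right, and between their fold enrichments 0.780 ± 0.00625 left and 0.749 ± 0.00529 right (SD over 3 pairs of lists). The input had only 0.257 ± 0.00606 left and 0.182 ± 0.00195 right. So within a side the input of single regions was repeated poorly between lists, although its mean level separated the sides in each of them. Summits of a pair of lists lay at a median distance of 22.3 ± 0.577 bp left and 26.3 ± 1.2 bp right. Pileup and width rose together to the same degree, with a rho of 0.645 ± 0.0184 left and 0.644 ± 0.0279 right within a list (SD, n = 3). These correlations run across regions, which share libraries, and are descriptions. Pileup was higher left, and the input was at the floor in 12.1 ± 2.80% of right regions against 0.111 ± 0.0274% of left ones. The part of these differences in the closer match of the lists was not tested.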

How the data were processed

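The peak lists of 3 TCF21 immunoprecipitations were analysed, 1 list each and none pooled, as their peak names show. List numbers were not matched to replicate numbers. Trimmomatic 0.36 and STAR 2.5.3a, with HOMER, MACS2 and bedtools, stand in the submitters' processing notes, without roles. The genome build, the calling threshold and the control library were not given in the sources used here. Per the file headers, the authors deposited for each peak a pileup signal, a fold enrichment ratio, the −log10 of the p-value and q-value, and the width and position in bp. The largest deposited p-value was about 0.01. Depth is unknown, so intervals cover counting of regions only.

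From these, regions were joined, and the peak of highest fold enrichment stood for its list. Spans ran to the cut at position 52500000 and to the end of the last peak. Sides were compared within each list and tested over lists by exact sign flips. The tested measures, peak density, spacing and width, also come from peaks called over the local control. No test is given for the pileup, the input, the ratios these enter, or widths at like pileup or fold enrichment. Regions were named by rank within a side (10 by pileup, 5 by fold enrichment, 3 by width, 2 by nearness to the cut, and 3 windows and 3 empty stretches). Members, cut and measures were chosen with earlier results of these data known. Python 3.11.15, pandas 2.3.3, numpy 2.4.6 and scipy 1.17.1 were used, and the steps were tested on simulated lists.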

Additional observations from a re-analysis of the deposited data

How the results depend on the processing

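The added alternatives (fold enrichment without its pseudocount, and in the strongest 10% of regions) were chosen after seeing the data, the others with earlier results known. The left share of regions, 45.5%, was 47.1% over peaks with a q-value up to 1e-05, 43.4% with the cut at 50 Mb, 43.2% without the first and last 5 Mb, and 53.0% without regions whose input was at the floor, which removes mostly right regions. Over the 14 alternatives the density ratio of regions stayed between 1.46 and 2.09. Dividing the pileup by the median input of the side turned the median pileup ratio from 1.32 to 0.847 and that of the strongest 10% from 1.38 to 0.882, by construction, since the input ratio is larger. Leaving out regions at the floor turned the width difference from 6.0 to −10.3 bp. The width difference was 0.333 bp over peaks with a q-value up to 1e-05, with lists from 0 to 1 bp. Without the first and last 5 Mb it was 1 bp, with lists from −3 to 6 bp. The input ratio of 1.56 was 1.65 with regions of at least 2 lists and 1.73 over all peaks, and the cause was not tested. The median fold enrichment ratio stayed below 1, from 0.816 without the pseudocount to 0.974, the peak density ratio ran from 1.34 to 1.70, and the spacing ratio from 0.720 to 0.874. Alternatives that change only the joining of regions give no other value for peak density and spacing. Leaving out each list in turn gave a left share of 44.9% to 45.4%, a peak density ratio of 1.39 to 1.44, pileup ratios of 1.33 to 1.4 (median) and 1.386 to 1.389 (strongest 10%), a fold enrichment ratio of 0.961 to 0.974, a width difference of 5.50 to 9.50 bp, a spacing ratio of 0.831 to 0.857 and an input ratio of 1.57 to 1.64. Without a list, a region needed a peak of the remaining lists only, which gave 5101, 5262 and 5361 regions in place of 4627. Apart from peak density and spacing, the ranges without a list thus also hold a changed set of regions. The sides were compared within each list. No paired analysis was possible because no list gives values of single input samples or a replicate number of the labels, so immunoprecipitation and input samples could not be matched by number. With 3 lists no p can pass 0.05, so these ranges, not p-values, show what the settings change. Sequence motifs were not run, since no genome of the build was used.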
